A study of Mus musculus with 8 samples.

Results

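Cd209a, Cd209b, Cd209c, Cd209d and Cd209e are mouse relatives of DC-SIGN, a C-type lectin that human dendritic cells carry on their surface. These 5 genes, of 20145 genes with a symbol on the array, were chosen from the fall of the family with maturation in Sirpa-positive thymic dendritic cells seen in an earlier look at these data. Their probes were found through the transcript identifiers in the scanner files. The 5 genes had 7 probes, 5 of which cleared the background limit on both arrays in 1 or more groups, and those 5 probes belonged to 4 of the genes. Cd209b was the gene left without such a probe.

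RNA came from dendritic cells sorted from mouse thymus, and 8 arrays of 1 colour (Cy3) were hybridised. The 4 groups, with 2 arrays each, were immature Sirpa-positive cells (replicates 3 and 5), mature Sirpa-positive cells (replicates 1 and 6), immature Sirpa-negative cells (replicates 4 and 7) and mature Sirpa-negative cells (replicates 2 and 8). Sirpa is an inhibitory surface receptor that marks one of the main thymic dendritic cell subsets. All groups shared the tissue. The labels name no strain, age, genotype or treatment and no sort marker besides Sirpa, and leave unsaid how maturation was read and whether the arrays of a group stem from different mice or different sorts. Each p-value thus reflects no more than the scatter among these 8 arrays, part or all of which may be technical. With 2 arrays a group, the number of arrays limits the precision of every value.

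DC-SIGN and most of its mouse relatives are type II membrane proteins that bind mannose- and fucose-rich sugars through one carbohydrate recognition domain. They take up glycosylated antigens and microbes and can bind adhesion molecules of the ICAM family. Cd209a, also called CIRE or mouse DC-SIGN, is widely used as a marker of type 2 and monocyte-derived dendritic cells. Cd209b (SIGNR1) is known from macrophages of the splenic marginal zone and lymph node, where it binds bacterial capsules and dextran. Cd209c (SIGNR2), Cd209d (SIGNR3) and Cd209e (SIGNR4) are closely related products of the same gene cluster on chromosome 8. Immature dendritic cells are specialised in uptake, and mature ones in migration, costimulation and presentation to T cells.

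The promoters of Cd209a, Cd209e and Cd209d are shown because these genes moved together over the arrays, and that of Cd209b because its probe stood near background. Each line holds the RefSeq sequence of GRCm38.p6 from 150 bases before to 30 bases after the annotated start, 5′ to 3′ along the gene, which lies on the minus strand. Capitals mark matches, on either strand, to AGGAAG (reverse complement CTTCCT), a core bound by the myeloid factor PU.1, and to CCGGAAG (reverse complement CTTCCGG), a site of the wider ETS family.
Cd209a, chr8:3748955-3749134: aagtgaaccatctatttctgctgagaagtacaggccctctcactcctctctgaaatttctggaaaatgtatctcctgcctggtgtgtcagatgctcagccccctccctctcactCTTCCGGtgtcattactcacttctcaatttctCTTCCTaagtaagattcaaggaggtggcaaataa
Cd209e, chr8:3854257-3854436: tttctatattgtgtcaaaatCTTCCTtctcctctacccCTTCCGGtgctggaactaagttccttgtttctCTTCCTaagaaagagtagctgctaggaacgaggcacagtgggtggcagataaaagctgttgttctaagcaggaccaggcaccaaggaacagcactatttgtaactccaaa
Cd209d, chr8:3878470-3878649: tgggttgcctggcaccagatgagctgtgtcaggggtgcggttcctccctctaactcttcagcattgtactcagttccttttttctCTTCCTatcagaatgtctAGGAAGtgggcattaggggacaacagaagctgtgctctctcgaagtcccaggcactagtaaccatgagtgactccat
Cd209b, chr8:3926812-3926991: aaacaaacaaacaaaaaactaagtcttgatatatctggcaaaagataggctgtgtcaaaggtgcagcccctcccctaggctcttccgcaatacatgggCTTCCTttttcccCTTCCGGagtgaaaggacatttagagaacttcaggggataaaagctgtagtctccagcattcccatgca

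In this window AGGAAG was present in the promoters of 4 of the 5 genes and in 23.6% of 32851 RefSeq mouse promoters. CCGGAAG was present in 3 of the 5 (Cd209a, Cd209b and Cd209e) and in 7.12% of all promoters. The promoter of Cd209c had neither string. Counting from the start, with -1 as the base just before it, the last CTTCCT lay at -4 to 2 in Cd209a, at -80 to -75 in Cd209e and at -65 to -60 in Cd209d. In these 3 promoters, though not in that of Cd209b, it sat inside the shared run TTTCTCTTCCTA. That run was the longest common to the 3, and it was looked for after the values were seen. It occurred in 9 promoters (0.0274%) of all, these 3 included. Runs were sought and counted in longer promoter sequences that reach beyond the window used for the motifs. The genes are neighbouring paralogues, so shared letters are a description and say nothing of binding.

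Cd209d, measured by probe A_55_P2055985, was well above background on all 8 arrays. Levels here are log2 of the processed signal minus the 75th percentile of its array. Cd209d stood at 5.42 and 5.30 in immature Sirpa-positive cells, at 1.56 and 1.95 in mature Sirpa-positive cells, at 2.08 and 1.97 in immature Sirpa-negative cells and at -0.41 and -0.17 in mature Sirpa-negative cells. The immature Sirpa-positive arrays were the highest and the mature Sirpa-negative arrays the lowest, and neither pair overlapped another group.

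Cd209e (probe A_55_P1960376) was likewise above background on every array. Its level was 4.22 and 3.82 in immature Sirpa-positive, 0.20 and 0.47 in mature Sirpa-positive, 1.03 and 0.74 in immature Sirpa-negative and -2.12 and -2.16 in mature Sirpa-negative cells. The order of the groups was that of Cd209d, again without overlap of the highest or lowest pair with another group.

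Cd209a had a pair of probes. Probe 1 (A_51_P133884) read 3.51 and 3.49 in immature Sirpa-positive cells, -1.09 and -0.97 in mature Sirpa-positive cells and -1.39 and -1.75 in immature Sirpa-negative cells. In mature Sirpa-negative cells it was not well above background, at -5.31 and -5.81. Probe 2 (A_55_P2018061) read 2.10 and 2.20, -2.40 and -2.22, and -2.16 and -3.13 in the same order of groups, and was not well above background in mature Sirpa-negative cells, at -4.05 and -4.27. Both probes placed the immature Sirpa-positive arrays far above all others, and their levels over the 8 arrays correlated with r = 0.96, given as a description.

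Cd209c was detected in one group. Its probe 1 (A_55_P2040805) stood at -0.76 and -0.49 in immature Sirpa-positive cells and between -6.69 and -4.95 on the other 6 arrays, none of them well above background. Probe 2 was above background on 1 array, an immature Sirpa-positive one, at -4.04, with the other array of that group at -4.13. The probes thus differed in how clearly they saw the gene, and only probe 1 entered the tests. Cd209b was above background on 1 of 8 arrays, mature Sirpa-negative replicate 2, at -3.60, and lay between -6.16 and -4.35 on the rest, so no difference could be read for it.

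**Figure D1:**
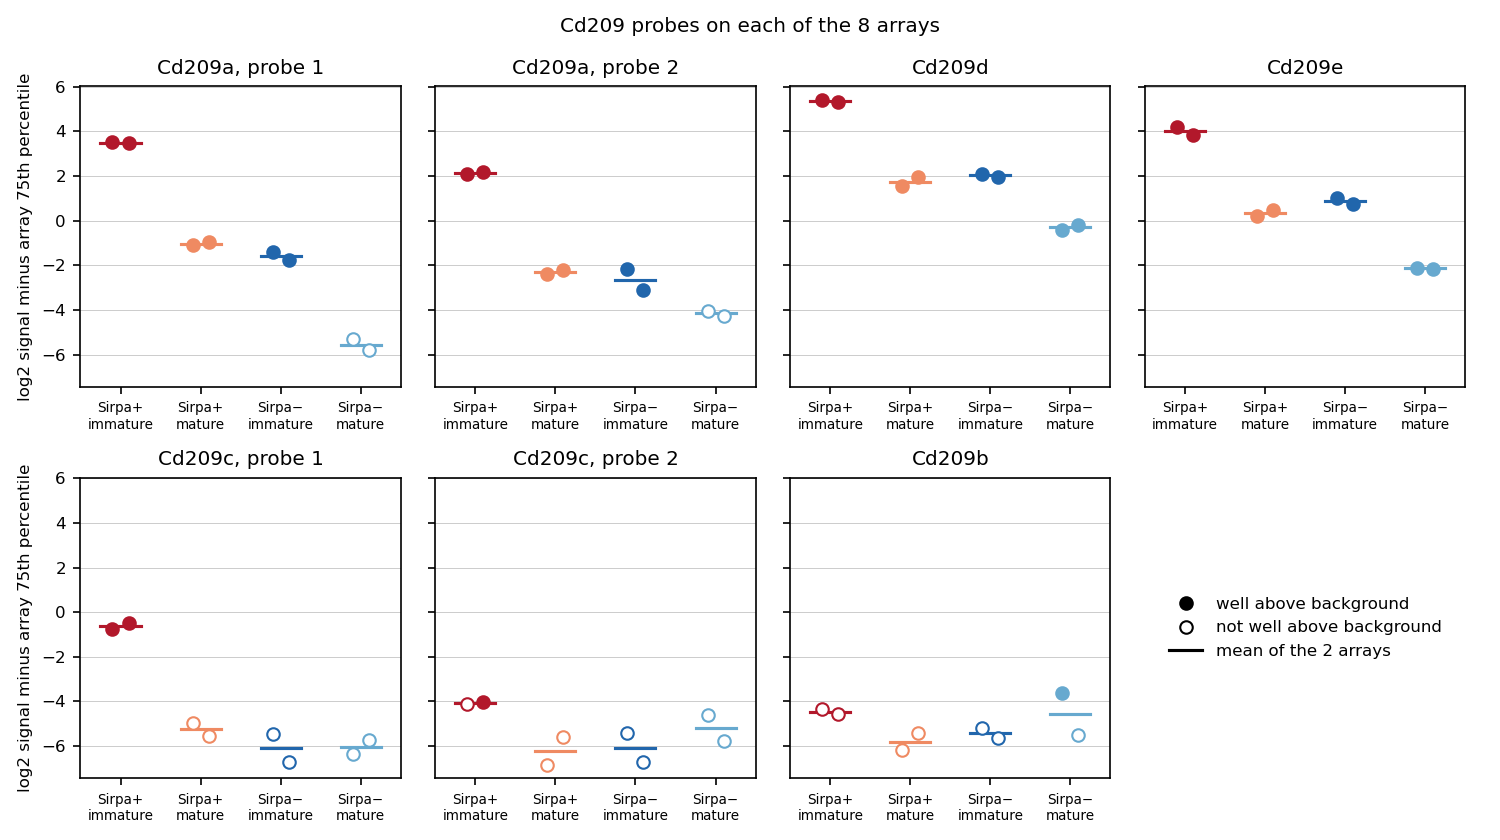
Level of each of the 7 Cd209 probes (y axis, log2 signal relative to the array's 75th percentile) in the 4 groups (x axis). Points are single arrays, filled where well above background and open where not, and lines are means of 2 arrays. For Cd209a, Cd209d, Cd209e and probe 1 of Cd209c the immature Sirpa-positive arrays are the highest, at 5.42 and 5.30 for Cd209d, while Cd209b is above background on 1 array.

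The groups in the middle of this order, mature Sirpa-positive and immature Sirpa-negative cells, lay close together. Mature Sirpa-positive minus immature Sirpa-negative gave a log2 difference of 0.54 ± 0.24 (SE; 95% interval -0.03 to 1.11) for Cd209a probe 1, -0.27 ± 0.22 (-0.80 to 0.25) for Cd209d and -0.55 ± 0.23 (-1.10 to -0.0039) for Cd209e. For Cd209a probe 2 the arrays of these groups overlapped, and the difference was 0.33 ± 0.32 (-0.42 to 1.09). The sign was thus positive for both Cd209a probes and negative for Cd209d and Cd209e, with intervals that reached 0 for all but Cd209e.

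Whether the genes change with maturation was asked in each subset. In Sirpa-positive cells, the comparison from which the genes were chosen, the log2 difference of mature minus immature cells was -4.53 ± 0.24 (SE, n = 2 against 2) for Cd209a probe 1, -4.46 ± 0.32 for probe 2, -3.61 ± 0.22 for Cd209d and -3.68 ± 0.23 for Cd209e. These differences correspond to levels 23.1-fold, 22.0-fold, 12.2-fold and 12.9-fold lower. Cd209c probe 1 was at least 9.95-fold lower. That bound sets the mean of the brighter group against the dimmest signal still well above background, or the probe's own where higher, on the arrays where it was not detected. All 5 passed a 2-fold limit downward, as did 5.35% of the 33697 probes tested, and since the choice of the genes used this contrast, it is given without a test and nothing is read from it. In sorted bulk samples, fewer cells of a type and less RNA per cell cannot be told apart. Markers of other cells moved with this comparison, given as summed levels in multiples of the array's 75th percentile. The sum of 17 macrophage and monocyte markers was 499.7 to 650.0 in immature and 391 to 417 in mature cells. Endothelial markers (5 genes) summed to 4.78 to 6.25 and to 1.41 to 2.03, and those of thymic epithelium (5 genes) to 8.18 to 12.7 and to 3.89 to 4.48. Of the 3 epithelial markers tested, Epcam differed by -1.75 (log2), and Krt5 and Foxn1 by 0.38 and 0.41. Sums were higher in mature cells for 10 thymocyte and T cell markers, at 39.6 to 46.5 and 56.8 to 59.0. They were also higher for 5 B cell markers, at 4.68 to 4.83 and 7.48 to 7.69. For 5 type 1 dendritic cell markers the sums were 32.6 to 35.0 and 52.3 to 76.3. Within that list Irf8 and Batf3 differed by 0.94 and 1.12 (log2), and Xcr1, Clec9a and Cadm1 by -0.81, -0.62 and -0.15. The part of all these markers in the result was not tested.

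Cd209d and Cd209e were also lower in mature than in immature Sirpa-negative cells. Neither was picked from this comparison, though the earlier look had named Cd209a from it. Cd209d fell by 2.32 on the log2 scale (SE 0.22, 95% interval -2.84 to -1.80), 4.99-fold, with an adjusted p of 0.0013 (limma, Benjamini-Hochberg over 33697 probes). Cd209e fell by 3.03 (SE 0.23, interval -3.57 to -2.48), 8.14-fold, with an adjusted p of 0.000706 in limma. Lower in mature cells by the same test were 6.88% of all probes. Both calls held in all 19 alternative settings, with adjusted p up to 0.0136 for Cd209d and 0.0116 for Cd209e, and in each gene both mature arrays lay below both immature ones. Cd209a is therefore described without a test: probe 1 was at least 6.71-fold lower and probe 2 at least 2.86-fold lower in mature cells. The measured log2 differences, -3.99 ± 0.24 and -1.51 ± 0.32, are both against arrays not above background, so their sizes cannot be compared. With background correction by normexp and quantile normalization they were -1.14 and -0.47. For Cd209c neither group was well above background. Summed levels of 10 thymocyte and T cell markers moved the other way, from 26.5 to 39.6 in immature to 63.8 to 86.9 in mature Sirpa-negative cells. Of these markers 7 of 10 rose, where 9.04% of all probes rose. Thymic epithelium markers summed to 2.16 to 2.99 in immature and 4.43 to 4.61 in mature cells, and type 1 dendritic cell markers to 219.9 to 227 and 135 to 142. B cell markers (5 genes) summed to 1.09 to 1.77 and 2.13 to 2.51. The part of these markers in the result was not tested.

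Set side by side, the log2 maturation differences in Sirpa-positive and Sirpa-negative cells were -3.61 and -2.32 for Cd209d, a difference of -1.29 ± 0.31 (SE), and -3.68 and -3.03 for Cd209e, a difference of -0.66 ± 0.33. Cd209a probes 1 and 2 gave -0.54 ± 0.34 and -2.94 ± 0.46, both limited by background in mature Sirpa-negative cells. These values contain the contrast of choice and carry no test.

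Among immature cells the genes with a tested probe were higher in the Sirpa-positive subset. The log2 difference of Sirpa-positive minus Sirpa-negative cells was 5.07 ± 0.24 (95% interval 4.50 to 5.64) for Cd209a probe 1, 33.6-fold, and 4.79 ± 0.32 (4.03 to 5.55) for probe 2, 27.7-fold. Cd209d differed by 3.34 ± 0.22 (2.81 to 3.86), 10.1-fold, and Cd209e by 3.13 ± 0.23 (2.59 to 3.68), 8.78-fold. The adjusted p in limma was 6.06e-05 and 0.000182 for the Cd209a probes, 0.000179 for Cd209d and 0.000281 for Cd209e. Cd209c probe 1 was at least 9.53-fold higher. It had entered the test through its immature Sirpa-positive arrays alone and so had to differ, and its p is not given. Higher by the same test were 6.7% of all probes tested. The comparison shares its immature Sirpa-positive arrays with the one the genes were chosen on, so high values there count in both. Its immature Sirpa-negative arrays are shared with the comparison from which Cd209a was also named.

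**Figure D2:**
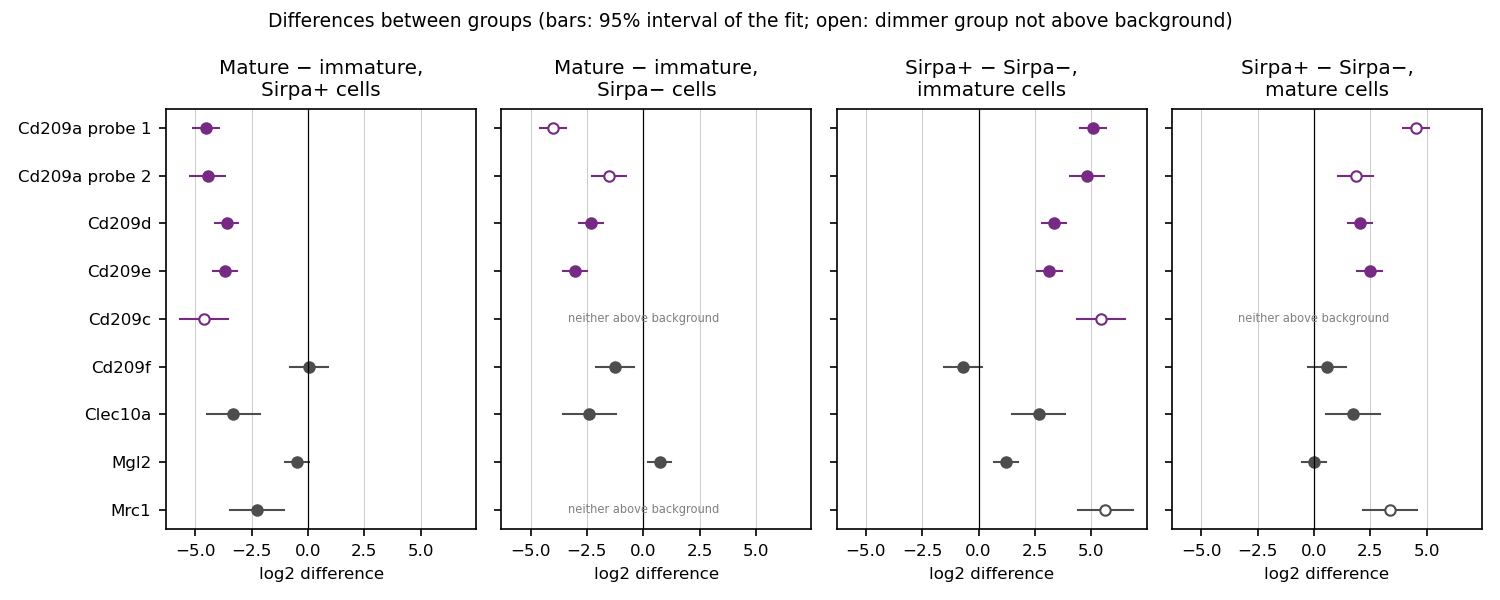
Log2 difference (x axis) of the 5 Cd209 probes tested and of Cd209f, Clec10a, Mgl2 and Mrc1 (rows) in the 4 comparisons, with bars for the 95% interval of the fit. Open points mark a dimmer group not above background, and comparisons with neither group above background have no point. The Cd209 probes lie left of 0 in both maturation comparisons and right of 0 in both subset comparisons. The first comparison, maturation in Sirpa-positive cells, is the one the genes were chosen on, and Cd209f lies near 0 in it, at 0.03. Cd209a was also named from maturation in Sirpa-negative cells.

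Among mature cells the subset difference had the same sign. Cd209d was higher in Sirpa-positive cells by 2.04 ± 0.22 (95% interval 1.52 to 2.57), 4.12-fold, and Cd209e by 2.48 ± 0.23 (1.93 to 3.02), 5.56-fold, with adjusted p of 0.00276 and 0.00153 in limma. Cd209a probe 1 was at least 9.74-fold higher (adjusted p = 0.000157 in limma), against Sirpa-negative arrays not well above background, and with normexp and quantile normalization its log2 difference was 1.40 in place of 4.53. Probe 2 was at least 3.60-fold higher, with an adjusted p of 0.0206 in limma. That call was lost without the filter on dim probes (adjusted p = 0.102), with normexp and quantile normalization (0.0922), without mature Sirpa-negative replicate 2 or 8 (0.0736 and 0.117) and without mature Sirpa-positive replicate 1 or 6 (0.0751 and 0.117). Cd209c had no group above background. Higher among mature Sirpa-positive cells were 4 of the 5 probes tested and 2.93% of all probes. The comparison shares its mature Sirpa-positive arrays with the contrast of choice. Its mature Sirpa-negative arrays were part of the comparison from which Cd209a was also named. Low values there count in both, so the calls of both Cd209a probes are not independent of that naming.

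Markers of other cell types moved with both subset comparisons. Of 17 macrophage and monocyte markers on the array, 10 and 12 were above background on both arrays in immature and mature Sirpa-negative cells and 16 and 15 in immature and mature Sirpa-positive cells. Their summed level was 14.5 to 15.7 and 13.2 to 13.6 in Sirpa-negative cells and 499.7 to 650.0 and 391 to 417 in Sirpa-positive cells. Vsig4, a receptor of resident macrophages, was not above background on any array, and Cd163 was not in Sirpa-negative cells. Among immature cells type 1 dendritic cell markers summed to 219.9 to 227 in Sirpa-negative and 32.6 to 35.0 in Sirpa-positive cells, thymic epithelium markers to 2.16 to 2.99 and 8.18 to 12.7, and endothelial markers to 0.561 to 0.793 and 4.78 to 6.25. Among mature cells the same sums were 135 to 142 and 52.3 to 76.3, 4.43 to 4.61 and 3.89 to 4.48, and 0.501 to 0.96 and 1.41 to 2.03. B cell markers (5 genes) summed to 1.09 to 1.77 in immature Sirpa-negative and 4.68 to 4.83 in immature Sirpa-positive cells. In mature cells these sums were 2.13 to 2.51 and 7.48 to 7.69. The median log2 difference of the 4 B cell markers tested was -0.53 among immature and -0.21 among mature cells. The part of these markers in the Cd209 differences was not tested. The dendritic cell markers Itgax, Flt3, Zbtb46, Cd74 and H2-Ab1 were above background on every array, and the endothelial gene Cdh5 on none. Sirpa itself was higher in Sirpa-positive cells by 6.83 (log2) among immature and 4.82 among mature cells, and the maturation gene Ccr7 rose by 6.16 in Sirpa-positive and 5.69 in Sirpa-negative cells. Same-group arrays correlated with r of 0.977 to 0.986 over the probes tested.

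Cd209f, a further relative in the same cluster, stood at -2.92 and -3.60 in immature and -3.25 and -3.21 in mature Sirpa-positive cells, with values that overlapped, and at -2.10 and -3.05 in immature and -3.86 and -3.77 in mature Sirpa-negative cells. Its log2 differences were 0.03 ± 0.36 and -1.25 ± 0.36 for maturation, and -0.69 ± 0.36 and 0.59 ± 0.36 between subsets of immature and of mature cells, none of which passed the test (limma adjusted p from 0.0565 to 0.98). The second passed in 4 of 18 alternatives, with an adjusted p down to 0.0288 with quantile normalization. The sign of the first, in Sirpa-positive cells, changed with the scaling, to -0.07 with median scaling. No probe of the array was matched to Cd209g.

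In RefSeq the cluster runs Trappc5, Fcer2a, Clec4g, Cd209a, Cd209e, Cd209d, Cd209b, Cd209c, Cd209f, Cd209g, Evi5l, Prr36 and Lrrc8e. These flanking genes, 3 on each side, were chosen after values had been seen. Trappc5, Fcer2a (the low-affinity IgE receptor), Prr36 and Lrrc8e passed the limma test in none of the 4 comparisons. The lowest adjusted p was 0.0591, for a log2 difference of -1.06 in Trappc5 with maturation in Sirpa-positive cells, the only one with an unadjusted p under 0.05. Clec4g, a lectin known from liver sinusoidal endothelium, was at least 11.9-fold higher in immature Sirpa-positive than immature Sirpa-negative cells, where it was not above background. It entered the test through its immature Sirpa-positive arrays alone and so had to differ, and its p is not given. Evi5l has no value here.

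**Figure D3:**
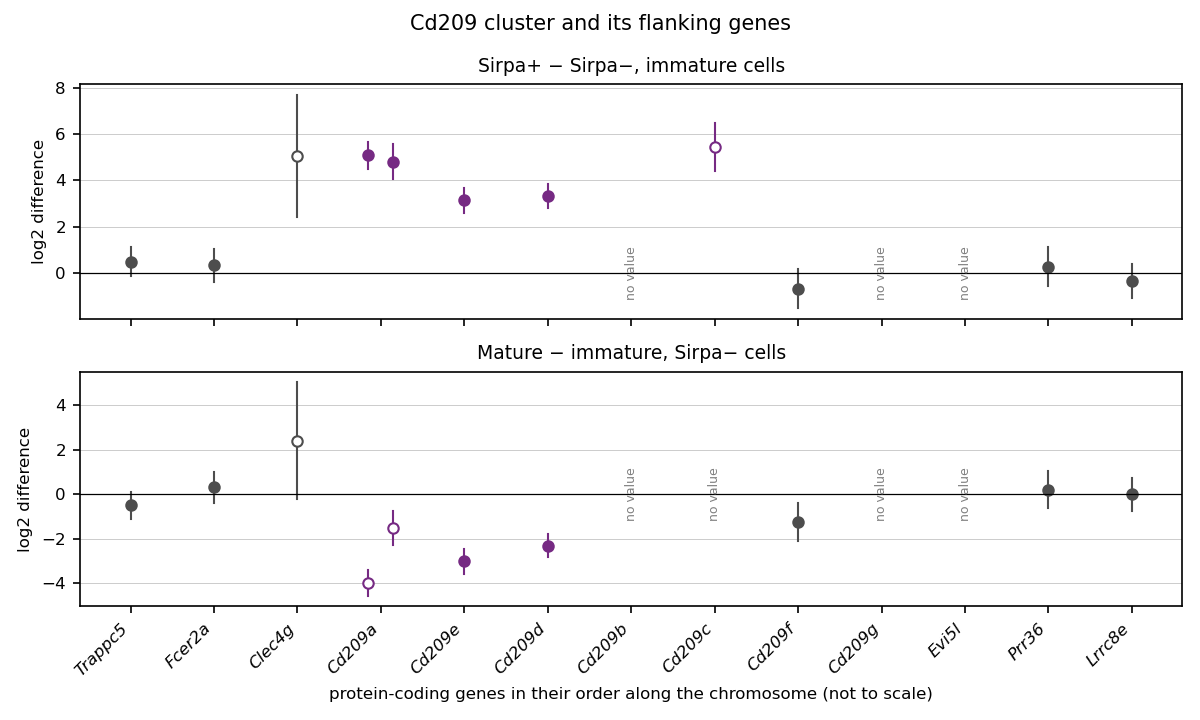
Log2 difference (y axis) of the genes of the cluster in their RefSeq order (x axis, not to scale) between immature Sirpa-positive and Sirpa-negative cells (top) and between mature and immature Sirpa-negative cells (bottom), with 95% intervals of the fit. Open points mark a dimmer group not above background, and genes without a usable probe are marked. Cd209a, Cd209e, Cd209d and Cd209c lie between 3.13 and 5.44 at the top, and Trappc5, Fcer2a, Cd209f, Prr36 and Lrrc8e near 0.

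Other lectins of myeloid cells were followed through the same comparisons. Of 24 on the array, 21 were tested. Between subsets of immature cells 15 were higher in Sirpa-positive cells, 3 were lower and 3 did not pass, with a median log2 difference of 2.16 against -0.11 over all probes. Of the 15, 4 (Clec4g, Clec5a, Olr1 and Colec12) had entered the test through the immature Sirpa-positive arrays alone and so had to differ, as had 1 of the 7 in the next comparison and 1 of the 4 lectins lower with maturation in Sirpa-positive cells. Between subsets of mature cells 7 were higher, 3 were lower and 11 did not pass (median 1.19 against -0.08). Over all probes 6.7% were higher and 4.13% lower among immature cells, and 2.93% higher and 2.03% lower among mature cells. With maturation 1 rose, 4 fell and 16 did not pass in Sirpa-positive cells (median -0.48 against 0.02), and 2 rose, 2 fell and 17 did not pass in Sirpa-negative cells (median 0.22 against -0.01). Over all probes 4.19% rose and 2.41% fell in the first, and 9.04% rose and 6.88% fell in the second.

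Among immature cells the receptors Clec4a1 and Clec4a3, members of the DCIR group, were at least 158-fold and at least 95.4-fold higher in Sirpa-positive cells (limma adjusted p = 3.57e-05 and 4.27e-05). Clec9a, the receptor for dead-cell actin on type 1 dendritic cells, was 64.6-fold lower there (7.18e-05 in limma), and Ly75, the uptake receptor DEC-205, was 9.27-fold lower (0.000166). Ly75 also rose with maturation, 11.8-fold in Sirpa-positive and 2.97-fold in Sirpa-negative cells (limma adjusted p = 0.000757 and 0.00404). Langerin (Cd207), another mannose-binding lectin, was 15.4-fold lower in mature Sirpa-positive than mature Sirpa-negative cells (limma adjusted p = 0.00119). In Sirpa-negative cells Clec2i rose 8.01-fold and Clec4b1 fell 4.45-fold with maturation (limma adjusted p = 0.00171 and 0.00468).

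Clec10a, Mgl2 and Mrc1, further lectins of type 2 cells and macrophages, were set beside the family. Clec10a, a galactose-type lectin, fell with maturation by 3.32 ± 0.50 in Sirpa-positive and by 2.39 ± 0.50 in Sirpa-negative cells (limma adjusted p = 0.0126 and 0.0204). The first call was lost without immature Sirpa-positive replicate 3 or 5 (0.0577 and 0.0879), the second without immature Sirpa-negative replicate 4 or 7 or mature Sirpa-negative replicate 2 (0.0614, 0.0843 and 0.115), and both without the filter on dim probes (0.0665 and 0.0792). Mgl2, a close paralogue of Clec10a, differed by -0.48 ± 0.22 and 0.73 ± 0.22 in the same comparisons, and neither passed (0.282 and 0.0673 in limma), though the first passed in 2 and the second in 4 of 19 alternatives. The mannose receptor Mrc1 was at least 12.9-fold higher in immature Sirpa-positive than Sirpa-negative cells (limma adjusted p = 0.000681), and in Sirpa-negative cells it was not above background at either stage. Mrc1 was also called higher in mature Sirpa-positive cells, and it fell by 2.26 with maturation in Sirpa-positive cells. These calls held in 14 and 9 of 18 alternatives. Clec10a and Mgl2 were called higher in immature Sirpa-positive cells, by 2.67 and 1.21, each in 15 of 19 alternatives. Among mature cells neither passed.

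**Figure D4:**
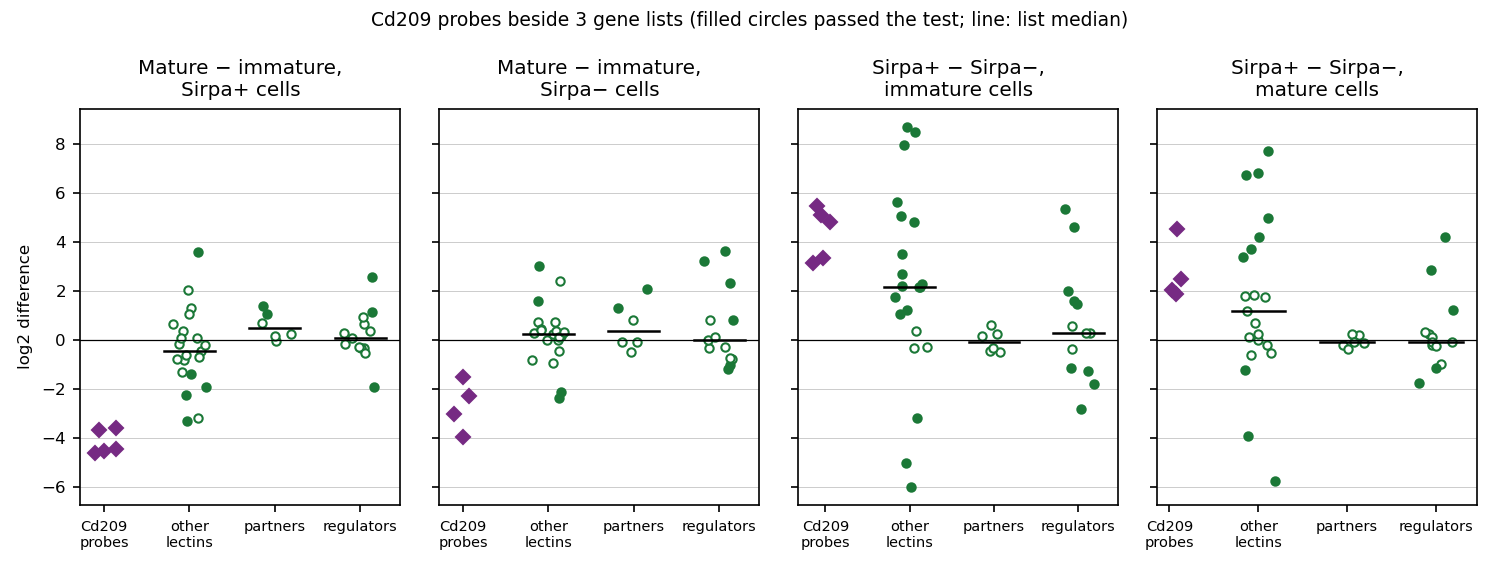
Log2 difference (y axis) of the Cd209 probes (diamonds) and of the genes of 3 lists (circles, filled where the limma test passed, with a line at the list median) in the 4 comparisons. The diamonds sit below the medians of the 3 lists in both maturation comparisons and above them in both subset comparisons. The genes were chosen on maturation in Sirpa-positive cells, so nothing is read from their place there, and Cd209a was also named from Sirpa-negative maturation. Diamonds are drawn alike where the dimmer group was not above background. Cd209c is not drawn where neither group was above background. The median of the other lectins is 2.16 between subsets of immature cells.

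Partners described for human DC-SIGN, which cover its ICAM ligand and the scaffold and kinase chain that carries its signal, passed no subset comparison. Of 6 tested, 0 passed in either subset comparison by limma, with 2 at an unadjusted p under 0.05 among immature cells and 0 among mature cells. Over all probes 6.7% were higher and 4.13% lower among immature cells, and 2.93% higher and 2.03% lower among mature cells. For so few genes, 0 lies near these shares. No decrease passed with maturation, where 2.41% and 6.88% of all probes fell in Sirpa-positive and Sirpa-negative cells. In each subset 2 rose, where 4.19% and 9.04% of all probes rose. In Sirpa-positive cells these were Ksr1 and Lsp1, whose calls held in 14 and 8 of 19 alternatives. Both were lost without any one of the 4 Sirpa-positive arrays, and Lsp1 also without either immature Sirpa-negative array, with adjusted p up to 0.12 for Ksr1 and 0.24 for Lsp1 in limma. Ksr1, a scaffold of the Raf kinase chain, rose 4.15-fold in Sirpa-negative cells (limma adjusted p = 0.00213). The NF-kB subunit gene Rela rose 2.44-fold there (adjusted p = 0.0154 in limma), a call lost without immature Sirpa-negative replicate 4 or 7 (0.0697 and 0.0589) or mature Sirpa-negative replicate 2 (0.0738), without the filter on dim probes (0.0744) and with only the arrays compared (0.058).

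Regulators of DC-SIGN and of the type 2 programme moved in both directions. Of 13 tested, 2 rose and 1 fell with maturation in Sirpa-positive cells, against 4.19% and 2.41% of all probes. In Sirpa-negative cells 4 rose and 2 fell, against 9.04% and 6.88%. Between subsets 5 were higher and 4 lower in immature Sirpa-positive cells (6.7% and 4.13% of all probes), and 3 higher and 2 lower in mature ones (2.93% and 2.03%). Spi1, which encodes PU.1, stood at mean levels between 5.47 and 6.02 in the 4 groups and passed in none of the 4 comparisons (limma adjusted p from 0.39 to 0.722, and no unadjusted p below 0.14). Il4ra, the receptor of the cytokine that induces DC-SIGN in human monocytes, was 3.01-fold higher in immature Sirpa-positive cells (limma adjusted p = 0.00267). It rose by 2.32 ± 0.20 with maturation in Sirpa-negative cells (0.000993 in limma). A link between Il4ra and the Cd209 genes was not tested.

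Irf4, a factor of type 2 dendritic cells, was 23.9-fold higher in immature Sirpa-positive than Sirpa-negative cells and rose 12.3-fold with maturation in Sirpa-negative cells (limma adjusted p = 9.19e-05 and 0.000587). Relb, an NF-kB subunit of mature dendritic cells, rose 5.92-fold and 9.28-fold with maturation in Sirpa-positive and Sirpa-negative cells (limma adjusted p = 0.0021 and 0.000587). Klf4 fell 3.81-fold with maturation in Sirpa-positive cells (limma adjusted p = 0.00602), a call lost without immature Sirpa-positive replicate 3 (0.0539). Irf8, of type 1 cells, was 7.20-fold lower in immature Sirpa-positive cells (limma adjusted p = 0.000567).

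Over the 8 arrays the levels of Cd209d and Cd209e correlated with r = 0.994, those of Cd209a with Cd209e and Cd209d with r = 0.987 and 0.984, and those of Cd209c with the other 3 with r of 0.856 to 0.897. These are descriptions over arrays that share 4 groups. The probe letters are not in the sources used here, so shared hybridisation between paralogues was not tested. Of 13843 genes compared, the most like Cd209a were Slc43a3, a purine transporter (r = 0.991), and Ngfr, the low-affinity neurotrophin receptor (0.99), followed by Gsg1, Daglb and Hgsnat. Most like Cd209d were Slc2a3, a glucose transporter (0.996), and Krt80 (0.989), followed by Dock4, Ctnnd2 and Heatr1. Cd209e had Eef2k, the elongation factor kinase (0.991), and Pitpna (0.987), then Tnfrsf13b, Nfam1 and, again, Dock4. For Cd209c the most like were Ltf, which encodes lactoferrin (0.982), Ifi213 (0.975), Sec14l2, Sp8 and Il17ra. The Cd209c probe was above background only in immature Sirpa-positive cells, so its r values, those with the family included, rest largely on that group.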

How the data were processed

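Spot intensities were deposited as Agilent scanner output, background-subtracted and detrended by Feature Extraction 10.7.3.1 per the file headers (10.5 per the submitters' processing notes). The authors' deposited log2 table, for which the notes name limma, served as an alternative. Its 8 sorted columns differ by at most 0.126, its ranks follow the median signal, and each array's median is 5.99 to 6.01. That its scale is log2 was read from its range, and any centring is unknown.

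The members, gene lists and comparisons were chosen with earlier results of these data known. Levels are log2 processed signals relative to each array's 75th percentile (147 to 313). Control and outlier spots were left out and spots of a probe averaged, and 33697 of 55681 probes well above background on both arrays of a group were kept, 52.9% to 65.5% of spots per array being above background. Group means were fitted in limma 3.58.1 (R 4.3.3) over all 8 arrays, with two-sided tests and Benjamini-Hochberg adjustment over the probes kept, at 0.05. The fit was tested on simulated data. Where several probes name a gene outside the family, the brightest stands for it. Of each list the text names up to 2 risen and 2 fallen genes with the smallest p per comparison, with Cd209f, Clec10a, Mgl2 and Mrc1, and the 5 genes most correlated with each member. Il4ra in Sirpa-negative maturation, Spi1 and the flanking genes were named after their values were seen. Promoters came from the RefSeq table of GRCm38.p6, while the array annotation uses another build, so no probe positions are given.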

Additional observations from a re-analysis of the deposited data

Results flagged for a closer look

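Mgl2, the paralogue of Clec10a, had maturation differences of opposite sign in the subsets, neither of which passed the test described above. Its log2 level was lower in mature than immature Sirpa-positive cells by a mean difference of -0.48 and higher in Sirpa-negative cells by 0.73. These single differences passed the test in 2 and 4 of 19 alternatives, with adjusted p down to 0.0208 and 0.0141 in limma, both with normexp and quantile normalization. The difference of these effects, -1.21 ± 0.31 (SE), did not pass the test over all probes (limma adjusted p = 0.294).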

How the results depend on the processing

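The calls of Cd209d and Cd209e for maturation in Sirpa-negative cells and for both subset comparisons held in all 19 alternatives. In each alternative that kept the probe, so did those of both Cd209a probes among immature cells and of Cd209a probe 1 among mature cells. Cd209c is left out here, since the way it entered the test meant that it had to differ among immature cells. Where at least 1 of the groups compared was above background, no Cd209a, Cd209c, Cd209d or Cd209e difference changed sign in these alternatives or within a slide row. With only probes above background on all 8 arrays, 2 probes of the family (Cd209d and Cd209e) remained in the fit. In Sirpa-positive maturation, which carries no test, 2 thus stood past the 2-fold limit in place of 5. Among immature cells 2 were called in place of 5, a count that includes Cd209c, which had to differ. Among mature cells 2 were called in place of 4. With normexp and quantile normalization the log2 difference of Cd209c among immature cells was 1.75 in place of 5.44, and that of Cd209a probe 1 among mature cells 1.40 in place of 4.53. In Cd209f the maturation difference of 0.03 in Sirpa-positive cells turned to -0.0552 with normexp and quantile normalization, -0.0684 with quantile normalization, -0.0728 with median scaling and -0.0612 in the authors' values, and leaving out 1 array gave -0.31 (without immature Sirpa-positive replicate 5) to 0.37. In Mgl2 the subset difference of 0.0022 among mature cells ranged from -0.0841 (without mature Sirpa-positive replicate 6) to 0.0884 with 1 array left out, and was -0.0721 without mature Sirpa-negative replicate 2. The cause of these shifts was not tested. Counts over all probes fell from 2225 to 447 (Sirpa-positive maturation), from 5363 to 1799 (Sirpa-negative maturation), from 3648 to 1812 (immature subsets) and from 1673 to 644 (mature subsets) without the filter on dim probes. With the slide row as a block the first was 1356, and with only the arrays compared the second and last were 2678 and 1035. Leaving out 1 array gave 511 to 534 or 1168, 2313 to 3193, 1557 to 2414, and 786 to 1047 where it moved them by over 1.5 times. Median scaling moved the median log2 difference of all probes in Sirpa-negative maturation from -0.01 to -0.12. No paired analysis was possible because the groups share no replicate number, and the slide row, which holds 1 array of each group, was used as a block instead.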
